A study of Mus musculus with 6 samples.

Results

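The genes of the major histocompatibility complex (MHC) and of the pathway that loads its molecules with peptide were examined in left ventricles of 1-year-old mice exposed to caffeine in utero. They were chosen by name, as every gene whose mouse symbol begins with H2- and 18 further genes, among them B2m, Cd74, the Tap and immunoproteasome genes and the transactivators Nlrc5 and Ciita. The choice was made with earlier results of this same contrast known, so the caffeine-to-vehicle values below are a description and are not independent evidence of a difference. The set held 63 of the 43629 genes counted. A count was recorded for 48 of the 63 in at least 1 heart, and 36 passed the filter on low counts and were tested.

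The hearts came from 6 male CD-1 mice of the F1 generation, the offspring exposed in utero. The dams of 3 mice had been injected intraperitoneally with vehicle (normal saline) and those of the other 3 with 20 mg/kg caffeine, once daily from E6.5 to E9.5, although another field of the labels gives a later last day. CD-1 is an outbred stock, no genotype or allele is given for any animal, and the dam of each heart is not stated, so the p-values treat hearts as independent that may share a litter. Poly(A) RNA was sequenced as single-end reads, and the total count of a heart lay between 7613011 and 10483101. At that depth 3 counts, taken as the detection floor, correspond to 0.286 to 0.394 CPM, the count scaled to a common library size. Cardiomyocyte markers (Myh6, Tnnt2, Actc1, Tnni3, Ryr2 and Pln) summed to between 41900 and 50930 CPM in every heart, and markers of atrial tissue (Sln, Myl4 and Myl7) to at most 2.05 CPM.

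MHC class I molecules are made by nearly all nucleated cells. A heavy chain, in mice H2-K, H2-D and the many Q, T and M genes, pairs with the light chain beta-2 microglobulin (B2m) and shows peptides from the cytosol to CD8 T cells. Those peptides are cut by the proteasome, carried into the endoplasmic reticulum by the transporter TAP and fitted to the heavy chain by tapasin, calreticulin and ERp57. MHC class II molecules are made mainly by macrophages, dendritic cells and B cells, hold an alpha and a beta chain of the A or the E type, and show endocytosed peptides to CD4 T cells. Interferon gamma raises both classes, through the transactivators CIITA (class II) and NLRC5 (class I).

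Across the 36 tested genes most values were higher in the caffeine-treated hearts, but none passed the thresholds of an adjusted p below 0.05 and a fold change above 1.5 in edgeR's quasi-likelihood test over all 13092 genes tested. The fold change was above 0 on the log2 scale in 32 and below 0 in 4, with a median of 0.49 against 0.00 over all genes tested. The thresholds were passed by 0 members in either direction, beside 0.084% of all genes that were higher and 0.0229% that were lower in caffeine. At an unadjusted p below 0.05, 15 members were higher (4.42% of all genes) and 0 were lower (4.4% of all genes). All 3 caffeine hearts lay above all 3 vehicle hearts in 10 members (7.11% of all genes), and below them in 0 (7.12% of all genes). The lowest adjusted p of any member was 0.25, for H2-Eb1. In edgeR's exact test 2 members passed both thresholds, H2-Eb1 (adjusted p = 0.0344) and Gm8810 (adjusted p = 0.0138), both higher in caffeine (0.466% of all genes), and 0 were lower (0.252% of all genes). Gm8810 and H2-T-ps, both among the 10 separated members, passed the filter only through their caffeine hearts. So did H2-K2, H2-Q2 and Ciita, whose vehicle hearts alone fell short of it. All of these but H2-Q2 are among the 15 at an unadjusted p below 0.05. The counts above therefore include members that entered through high caffeine values. In edgeR's exact test with no filter the adjusted p of Gm8810 was 0.061. DESeq2 and limma-voom called 0 members. One caffeine heart, replicate 1, weighed on these figures. It held the highest value of 22 of the 36 members, against 20.0% of all tested genes. Without it 28 of the 36 fold changes were above 0 (49.3% of all genes tested), and their median was 0.32. At an unadjusted p below 0.05 in that fit 10 members were higher and 2 lower, beside 505 and 512 of 13311 genes.

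**Figure D1:**
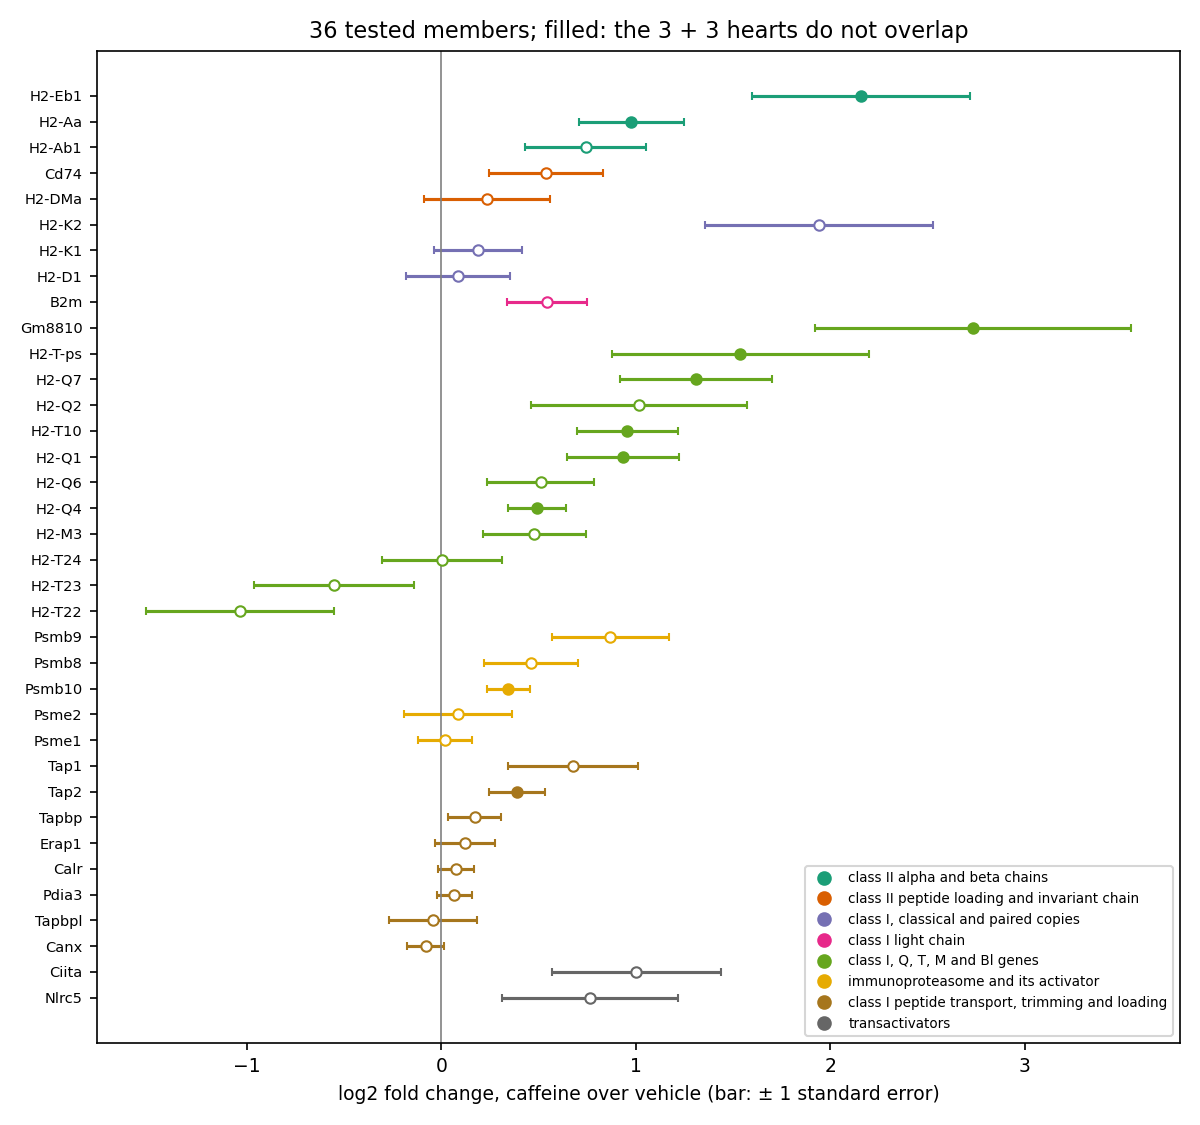
Log2 fold change of caffeine over vehicle (x axis) for the 36 tested genes (y axis), coloured by role, with bars of 1 standard error and filled points where the 3 caffeine and 3 vehicle hearts did not overlap. Of the 36 points 32 lie right of 0, the filled ones number 10, and H2-T22 and H2-T23 lie farthest left.

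To let a reader see the regulatory sequence behind the genes followed below, the promoters of both class II chains whose hearts did not overlap, of H2-K1, of B2m and of H2-T22 are given from RefSeq (GRCm38.p6), 5′ to 3′ on the strand of the gene, within 250 bases before the start and without bases that overlap an annotated exon. Capitals mark matches, on either strand, to the interferon-stimulated response element (searched as GAAA, any 2 bases, GAAA), the Y box bound by NF-Y (CCAAT) and TGACG, the core of the cAMP response element and of the X2 box of class II promoters. A match only states that these letters are present, and elements spelled otherwise were not searched.

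H2-Aa promoter, chr17:34287824-34288073, minus strand: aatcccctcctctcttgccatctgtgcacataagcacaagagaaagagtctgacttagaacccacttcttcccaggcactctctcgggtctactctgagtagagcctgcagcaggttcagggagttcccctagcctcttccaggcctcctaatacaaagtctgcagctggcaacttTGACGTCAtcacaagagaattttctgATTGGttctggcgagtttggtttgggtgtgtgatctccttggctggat

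H2-Eb1 promoter, chr17:34305721-34305866, plus strand: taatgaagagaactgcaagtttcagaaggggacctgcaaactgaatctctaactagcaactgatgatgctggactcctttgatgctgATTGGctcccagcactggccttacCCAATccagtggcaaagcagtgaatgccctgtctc

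H2-K1 promoter, chr17:34000348-34000597, minus strand: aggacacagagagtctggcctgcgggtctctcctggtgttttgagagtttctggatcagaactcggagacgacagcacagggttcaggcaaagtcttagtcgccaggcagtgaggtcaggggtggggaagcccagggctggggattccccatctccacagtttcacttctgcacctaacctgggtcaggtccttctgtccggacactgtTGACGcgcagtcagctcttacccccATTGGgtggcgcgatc

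B2m promoter, chr2:122147437-122147685, plus strand: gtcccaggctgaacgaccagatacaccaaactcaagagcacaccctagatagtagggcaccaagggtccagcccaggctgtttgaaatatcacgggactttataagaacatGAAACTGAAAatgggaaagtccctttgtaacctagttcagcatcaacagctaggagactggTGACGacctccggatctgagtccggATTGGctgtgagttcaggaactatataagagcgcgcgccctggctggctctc

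H2-T22 promoter, chr17:36042748-36042960, minus strand: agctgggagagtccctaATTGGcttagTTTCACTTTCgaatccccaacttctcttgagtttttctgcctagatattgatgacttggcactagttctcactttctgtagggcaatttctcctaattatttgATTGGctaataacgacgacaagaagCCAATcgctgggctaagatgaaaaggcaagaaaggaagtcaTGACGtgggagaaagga

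The pair of TGACG matches in the H2-Aa promoter overlap in a single palindrome, TGACGTCA. The H2-Aa, H2-Eb1 and H2-K1 promoters hold the Y box and no match to the searched form of the interferon-stimulated response element. Those of B2m and H2-T22 hold both. Other spellings were not searched, so a missing match does not mean a missing element. RefSeq promoters were found for 25 tested members. The Y box was present in 20 of the 25, against 33.8% of 32851 mouse promoters of the same length, and the TGACG core in 13 of the 25, against 17.8%. The searched form of the interferon-stimulated response element was present in 3 of the 25 (B2m, H2-T22 and H2-T23), against 2.98% of all promoters. A gamma-activated site (searched as TTCNNNGAA) was present in 2 of the 25, against 7.02%. Promoters of copied genes resemble each other, so these shares are not counts of independent sequences.

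Of the 7 class II chain genes 3 were tested, and all 3 had fold changes above 0 with a median of 0.98 on the log2 scale. In what follows the values of a group are given in the order of replicates 1, 2 and 3, and the standard error (SE) belongs to the log2 fold change. H2-Eb1, the beta chain of the E molecule (chr17:34305867-34316674, GRCm38, plus strand), had 10.8, 1.61 and 4.96 CPM in the vehicle hearts and 47.2, 12.9 and 18.5 CPM in the caffeine hearts. The groups did not overlap, but the vehicle hearts alone spanned from 17 to 111 counts, and caffeine replicate 1 had more counts (337) than the other caffeine hearts (114 and 158). The log2 fold change was 2.16 (SE 0.56), a 4.46-fold higher level, and the quasi-likelihood adjusted p was 0.25. Without caffeine replicate 1 it was 1.44, and without vehicle replicate 1 it was 2.99.

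H2-Aa, the alpha chain of the A molecule (chr17:34282744-34287823, minus strand), had 25.4, 25.4 and 13.4 CPM in the vehicle hearts and 58.4, 28.3 and 40.5 CPM in the caffeine hearts. Here too the groups did not overlap, although caffeine replicate 2 lay only just above the 2 higher vehicle hearts. The log2 fold change was 0.98 (SE 0.27, edgeR adjusted p = 0.274). H2-Ab1, its beta chain partner (chr17:34257689-34269419, plus strand), had 11.7, 19.1 and 9.12 CPM in the vehicle hearts and 32.1, 13.5 and 21.9 CPM in the caffeine hearts. The hearts of the treatments overlapped, since caffeine replicate 2 was below vehicle replicate 2. The log2 fold change of H2-Ab1 was 0.74 (SE 0.31, edgeR adjusted p = 0.535), and 0.41 without caffeine replicate 1.

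The chains were not in a fixed proportion from heart to heart. The ratio of H2-Aa to H2-Ab1 counts lay between 1.33 and 2.17 in the vehicle hearts and between 1.82 and 2.09 in the caffeine hearts. The ratio of H2-Eb1 to H2-Ab1 counts was 0.925, 0.0842 and 0.544 in the vehicle hearts and 1.47, 0.95 and 0.845 in the caffeine hearts. Vehicle replicate 2 therefore had little H2-Eb1 for an H2-Ab1 level that was the highest among the vehicle hearts. H2-Ea-ps, the alpha chain gene of the E molecule and a polymorphic pseudogene in the reference annotation, had 68, 7 and 2 counts in the vehicle hearts and 0, 0 and 3 in the caffeine hearts. It went the opposite way to H2-Eb1 and did not pass the filter, and a single vehicle heart held most of its counts. No read-length stretch of 75 bases in H2-Aa, H2-Ab1, H2-Eb1 or H2-Ea-ps occurs in another annotated gene. The MHC varies among mouse stocks, and reads of outbred CD-1 animals were mapped to the C57BL/6 reference. The part that allele differences play in any H2 count was not tested. The remaining class II chain genes, H2-Eb2, H2-Pa and H2-Pb, had no count in any heart.

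**Figure D2:**
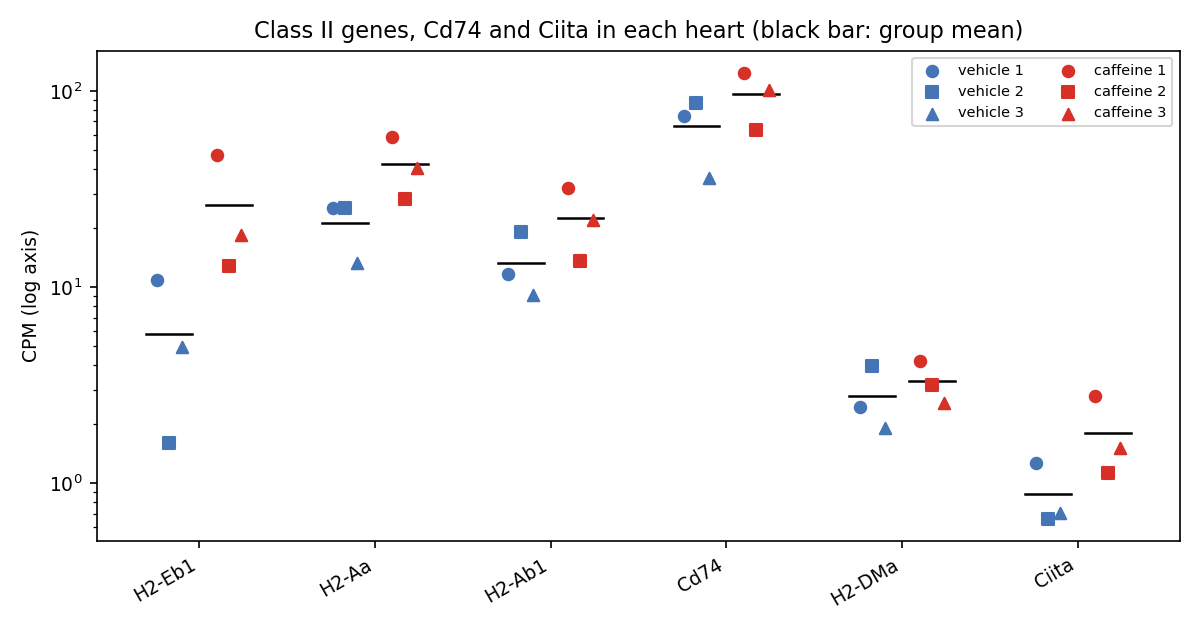
CPM on a log axis for 3 class II chains, Cd74, H2-DMa and Ciita in each heart, with circles, squares and triangles for replicates 1, 2 and 3, blue for vehicle and red for caffeine, and a black bar at the group mean. Caffeine replicate 1 is the highest point of every gene shown, and the colours separate in H2-Eb1 and H2-Aa.

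Of the 6 genes that serve the class II molecule after its synthesis 2 were tested, Cd74 and H2-DMa. Cd74, the invariant chain that occupies the groove until peptide is loaded, had 74.9, 87.1 and 36.1 CPM in the vehicle hearts and 124, 63.3 and 102 CPM in the caffeine hearts. The groups overlapped, with a log2 fold change of 0.54 (SE 0.29, edgeR adjusted p = 0.649), which was 0.24 without vehicle replicate 3. Per class II chain count (H2-Aa, H2-Ab1 and H2-Eb1 together), Cd74 stood at 1.56, 1.89 and 1.31 in the vehicle hearts and 0.898, 1.16 and 1.26 in the caffeine hearts, so that each caffeine heart had less Cd74 per chain than each vehicle heart. That separation rested on H2-Eb1, because the ratio of Cd74 to H2-Aa and H2-Ab1 alone overlapped (1.60 to 2.02 in vehicle, 1.37 to 1.63 in caffeine). H2-DMa, a subunit of the exchange factor H2-DM that removes the invariant chain fragment, had a log2 fold change of 0.24 (SE 0.33), with 19 to 42 counts in the vehicle hearts and 22 to 30 in the caffeine hearts. H2-DMb1, H2-DMb2, H2-Oa and H2-Ob had at most 11 counts in any heart and were not tested.

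The classical class I heavy chains were present at higher levels and did not separate the treatments. H2-D1 (chr17:35262730-35267499, plus strand) had 320, 312 and 223 CPM in the vehicle hearts and 162, 326 and 418 CPM in the caffeine hearts, with a log2 fold change of 0.09 (SE 0.27). Its lowest and its highest value were both in caffeine hearts. H2-K1 (chr17:33996017-34000347, minus strand) had 111, 71.8 and 77.3 CPM in the vehicle hearts and 102, 64.9 and 131 CPM in the caffeine hearts, with a log2 fold change of 0.19 (SE 0.23). Without each heart in turn the log2 fold change lay between -0.22 and 0.38 for H2-D1 and between -0.06 and 0.42 for H2-K1. Caffeine replicate 1, the highest heart for every tested class II gene, was thus the lowest for H2-D1 and the third highest for H2-K1, and its H2-D1 to H2-K1 ratio was 1.59 where the other hearts had 2.88 to 5.03. H2-K2, a transcribed pseudogene copy beside H2-K1, had 0.489, 0.757 and 2.33 CPM in the vehicle hearts and 7.7, 1.81 and 4.46 CPM in the caffeine hearts, which overlapped (log2 fold change 1.94, SE 0.59, edgeR adjusted p = 0.317). The fold change of H2-K2 was 1.39 without caffeine replicate 1 and 2.85 without vehicle replicate 3. Of the 75-base stretches of H2-K1, H2-D1 and H2-K2 in the reference, 3.1%, 5.56% and 4.99% occur in another gene. Reads of CD-1 alleles may differ from the reference, so the share of reads placed on the wrong copy was not measured.

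B2m, the light chain shared by all class I molecules (chr2:122147686-122153083, plus strand), lies outside the MHC. It had 338, 229 and 282 CPM in the vehicle hearts and 435, 275 and 528 CPM in the caffeine hearts, with caffeine replicate 2 inside the vehicle range. The log2 fold change was 0.54 (SE 0.21, edgeR adjusted p = 0.446). Caffeine replicate 1 had 1.65 B2m counts for each count of H2-K1 and H2-D1 together, and the other hearts between 0.597 and 0.961.

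The Q, T and M genes, the nonclassical class I genes, number 29 with Gm8810 and H2-Bl, of which 17 had a count and 12 were tested. The fold change was above 0 in 10 of the 12, and in 6 of the 12 the hearts did not overlap, each time with caffeine higher (7.11% of all genes tested, and 7.12% with caffeine lower). H2-T10, whose product is recognised by gamma-delta T cells and which the annotation calls a polymorphic pseudogene, had 4.2, 3.97 and 2.84 CPM in the vehicle hearts and 6.02, 5.76 and 9.62 CPM in the caffeine hearts. Its log2 fold change was 0.96 (SE 0.26, edgeR adjusted p = 0.269), and without each heart in turn it lay between 0.68 and 1.10. H2-Q4 had 20.3, 18.6 and 22.3 CPM in the vehicle hearts and 32.1, 22.7 and 31.5 CPM in the caffeine hearts (log2 fold change 0.49, SE 0.15, edgeR adjusted p = 0.319). Between hearts of the same treatment H2-Q4 had a biological coefficient of variation, edgeR's estimate of a gene's spread beyond counting error, of 12.6%, where H2-K1, H2-D1 and H2-Aa had 19.7% to 23.3%.

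H2-Q7, which encodes the cell surface molecule Qa-2 with its neighbouring copies, had 2.25, 1.51 and 1.82 CPM in the vehicle hearts and 4.62, 2.26 and 7.04 CPM in the caffeine hearts (log2 fold change 1.31, SE 0.39, edgeR adjusted p = 0.317). H2-Q1 had 1.17, 1.8 and 1.42 CPM in the vehicle hearts and 2.66, 2.71 and 3.05 CPM in the caffeine hearts (log2 fold change 0.93, SE 0.29, edgeR adjusted p = 0.328). The pseudogene H2-T-ps had 2.25, 0.852 and 0 CPM in the vehicle hearts and 2.38, 2.48 and 4.22 CPM in the caffeine hearts (log2 fold change 1.54, SE 0.66, edgeR adjusted p = 0.551). All of these were low, and the separation in H2-T-ps was a matter of 1 heart just below another. Gm8810, an unprocessed pseudogene between H2-T22 and H2-T10, had 0, 0 and 8 counts in the vehicle hearts and 20, 13 and 11 counts in the caffeine hearts. Its log2 fold change of 2.73 (SE 0.81, edgeR adjusted p = 0.314) was the highest of the members and was set by values at the floor. Gm8810 and H2-T-ps passed the filter only through their caffeine hearts, and both are among the separated genes counted above. H2-Q2, H2-Q6 and H2-M3 had log2 fold changes of 1.02, 0.51 and 0.48 with overlapping hearts. H2-Q2 ran from 0.56 without caffeine replicate 1 to 1.495 without vehicle replicate 1, and H2-Q6 was 0.13 without caffeine replicate 3. Copies of this family share sequence, and the share of 75-base stretches found in another gene was 20.7% for H2-Q4, 21.1% for H2-Q6, 17% for H2-Q7 and 36% for H2-T10, so the split of reads among them is uncertain.

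A neighbouring pair of T genes ran against the rest. H2-T22, the near copy of H2-T10, had 10.9, 9.56 and 16.2 CPM in the vehicle hearts and 13.02, 2.15 and 3.4 CPM in the caffeine hearts. H2-T23, which encodes Qa-1, the ligand of the NKG2A and CD94 receptor on natural killer cells, had 13.5, 10.4 and 16.8 CPM in the vehicle hearts and 18.3, 5.08 and 5.04 CPM in the caffeine hearts. In both genes caffeine replicates 2 and 3 were below every vehicle heart while caffeine replicate 1 was within or above the vehicle range. The log2 fold changes were -1.03 for H2-T22 (SE 0.48, edgeR adjusted p = 0.581) and -0.55 for H2-T23 (SE 0.41, edgeR adjusted p = 0.767). Without caffeine replicate 1 they were -2.14 and -1.42. Of the 75-base stretches of H2-T22, 40.0% occur in another gene, and of those of H2-T23 5.91%. H2-T24, which adjoins them, had a log2 fold change of 0.00 (SE 0.31).

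**Figure D3:**
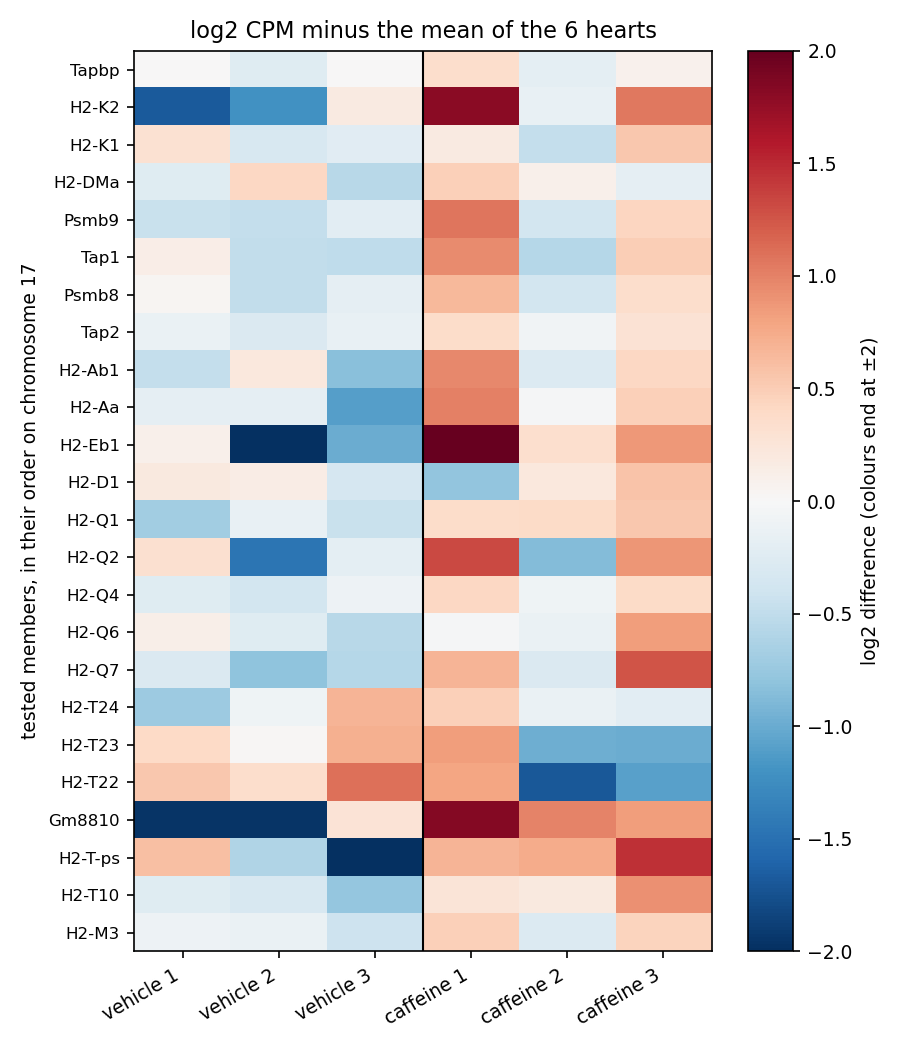
Log2 CPM of each tested member on chromosome 17 minus its mean over the 6 hearts (colour, from -2 in blue to 2 in red), with hearts in columns and genes in rows in their order along the chromosome. The caffeine replicate 1 column is red from H2-K2 to H2-Eb1 and blue at H2-D1, and H2-T23 and H2-T22 are blue in caffeine replicates 2 and 3 only.

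Class I and class II genes were therefore compared within each heart. The class II sum (H2-Aa, H2-Ab1 and H2-Eb1) was 48.0, 46.1 and 27.5 CPM in the vehicle hearts and 138, 54.7 and 80.9 CPM in the caffeine hearts, or 40.5 ± 11.3 against 91.1 ± 42.4 CPM (mean ± SD, n = 3 each). The class I sum (H2-K1 and H2-D1) was 431, 384 and 300.2 CPM in the vehicle hearts and 263, 391 and 549 CPM in the caffeine hearts, or 372 ± 66.5 against 401 ± 143 CPM. Every caffeine heart exceeded every vehicle heart in class II, and the treatments overlapped in class I. Class II counts stood to class I counts as 0.111, 0.12 and 0.0915 in the vehicle hearts and as 0.523, 0.14 and 0.148 in the caffeine hearts. On the log2 scale class II minus class I was -3.23 ± 0.20 in vehicle and -2.18 ± 1.08 in caffeine hearts, a difference of 1.05. The SD of the caffeine hearts exceeds that difference. Caffeine replicate 1 had the highest class II and the lowest class I sum of the 6 hearts, and without that heart the difference was 0.43. No p is given for this sum over chosen genes. Over the tested genes of each class, the median log2 fold change was 0.51 for 15 class I heavy chain genes and 0.74 for 5 class II genes. The 15 include the pseudogenes Gm8810, H2-T-ps and H2-K2 and the polymorphic pseudogene H2-T10. The 5 include Cd74 and H2-DMa, which are not chains. Without caffeine replicate 1 the medians were 0.56 and 0.41, so the order of these mixed sets turned over.

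**Figure D4:**
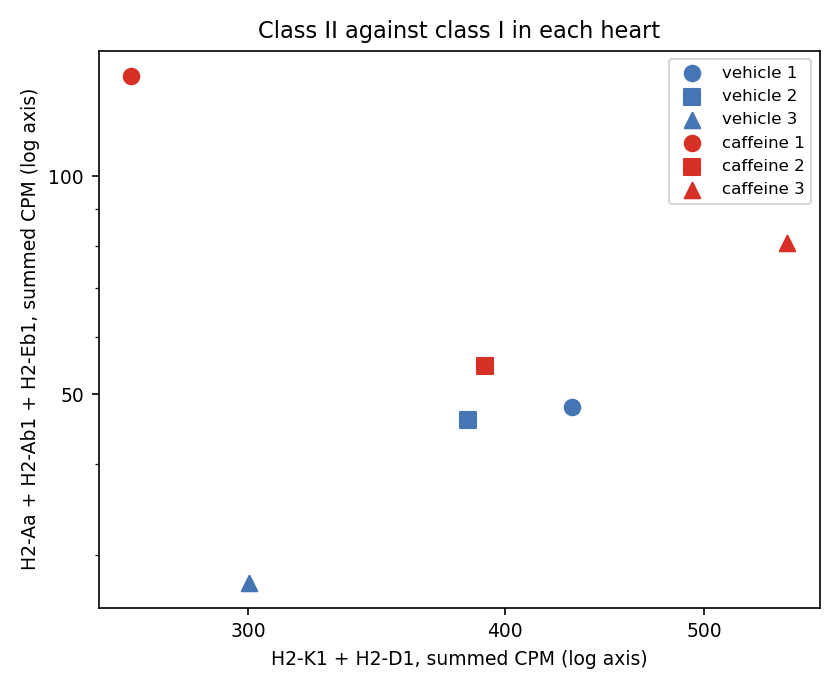
Summed CPM of 3 class II chains (y axis, log) against summed CPM of H2-K1 and H2-D1 (x axis, log) in each heart, blue for vehicle and red for caffeine, with the replicate given by the shape. The caffeine hearts all lie above the vehicle hearts on the y axis, and caffeine replicate 1 stands apart at the upper left with 138 CPM of class II and 263 CPM of class I.

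Of the machinery that supplies class I peptides, all 5 immunoproteasome and activator genes had fold changes above 0, with a median of 0.35 on the log2 scale, and the hearts overlapped in 4 of them. The immunoproteasome replaces the catalytic subunits of the constitutive proteasome with Psmb8, Psmb9 and Psmb10. Psmb10 had 51.6, 41.0 and 50.2 CPM in the vehicle hearts and 64.5, 56.1 and 60.7 CPM in the caffeine hearts, which did not overlap. Its log2 fold change was 0.35 (SE 0.11, edgeR adjusted p = 0.349), and per count of Psmb7, the subunit it replaces, it stood at 0.338 to 0.418 in vehicle and 0.444 to 0.502 in caffeine hearts. Psmb9 had 5.86, 5.77 and 6.99 CPM in the vehicle hearts and 17.2, 6.21 and 11.02 CPM in the caffeine hearts, with a log2 fold change of 0.87 (SE 0.30, edgeR adjusted p = 0.4), or 0.47 without caffeine replicate 1. Psmb8 had 11.9, 8.14 and 10.1 CPM in the vehicle hearts and 18.2, 8.92 and 14.8 CPM in the caffeine hearts (log2 fold change 0.46, SE 0.24). In both, caffeine replicate 2 lay in the vehicle range and the other caffeine hearts above it. The 2 subunits of the proteasome activator PA28 did not share this. Psme1 had 92.4, 78.3 and 73.2 CPM in the vehicle and 100.1, 68.1 and 79.5 CPM in the caffeine hearts (log2 fold change 0.02, SE 0.14). Psme2 had 5.67, 5.3 and 6.18 CPM in the vehicle and 7.56, 3.39 and 7.39 CPM in the caffeine hearts (log2 fold change 0.09, SE 0.28), and 22.9% of its 75-base stretches occur in its copy Psme2b.

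TAP is a dimer of Tap1 and Tap2. Tap1, which lies beside Psmb9, had 8.21, 5.21 and 5.17 CPM in the vehicle hearts and 14.6, 4.97 and 10.6 CPM in the caffeine hearts (log2 fold change 0.68, SE 0.34, edgeR adjusted p = 0.609), and 0.32 without caffeine replicate 1. Tap2 had 16.02, 14.3 and 15.8 CPM in the vehicle hearts and 22.5, 16.6 and 21.3 CPM in the caffeine hearts (log2 fold change 0.39, SE 0.14, edgeR adjusted p = 0.43). The Tap2 hearts did not overlap, and those of Tap1 did. Tapbp (tapasin) had 68.1, 57.2 and 68.4 CPM in the vehicle and 87.1, 59.3 and 72.0 CPM in the caffeine hearts, with a log2 fold change of 0.17 (SE 0.14). The general chaperones and trimming enzyme of the same compartment, Calr, Canx, Pdia3 and Erap1, and the tapasin relative Tapbpl had log2 fold changes between -0.08 and 0.12, each with overlapping hearts. Some of these genes overlap others on the chromosome or have copies, and the share of 75-base stretches found in another gene was 3.44% for Psmb9, 2.4% for Tap1, 9.97% for Psmb8 and 18.6% for Tapbp.

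Both transactivators were near the lower end of what was measured. Ciita had 13, 7 and 7 counts in the vehicle hearts and 20, 10 and 13 counts in the caffeine hearts, or 1.27, 0.662 and 0.709 CPM against 2.8, 1.13 and 1.52 CPM. The log2 fold change was 1.004 (SE 0.44, edgeR adjusted p = 0.556), with caffeine replicate 2 below vehicle replicate 1, and 0.58 without caffeine replicate 1. Nlrc5 had 2.74, 2.18 and 2.53 CPM in the vehicle hearts and 7.98, 1.81 and 3.17 CPM in the caffeine hearts. Its log2 fold change of 0.76 (SE 0.45, edgeR adjusted p = 0.678) came from caffeine replicate 1 alone and was 0.00 without it.

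In CPM per kilobase of exon (RPKM), B2m was the most abundant member at 329 ± 63.3 in vehicle and 480 ± 148 in caffeine hearts (mean ± SD, n = 3 each). The length joins the exons of all annotated transcripts of a gene, so the order of genes can depend on the annotation. H2-D1 followed at 111 ± 20.9 and 117 ± 50.4 RPKM. Cd74 stood at 39.3 ± 15.9 and 57.3 ± 18.2 RPKM and H2-K1 at 29.5 ± 7.28 and 33.7 ± 11.2 RPKM. Cd74 was above H2-K1 within every heart except vehicle replicate 3 (21.5 against 26.3 RPKM). The class II chains were lower, with H2-Aa at 5.63 ± 1.83 and 11.2 ± 3.98 RPKM, H2-Ab1 at 5.19 ± 2.02 and 8.77 ± 3.61 RPKM, and H2-Eb1 at 2.99 ± 2.41 and 13.5 ± 9.46 RPKM. The order of these chains varied among the vehicle hearts, and H2-Ab1 was the lowest of them in each caffeine heart. Ciita was the lowest of the tested members at 0.0924 ± 0.0355 and 0.191 ± 0.0916 RPKM. Of the 63 members 15 had no count in any heart, among them the H2-M10 genes. Another 12 had counts but were not tested, and of these H2-Ea-ps (68), H2-Q10 (15) and H2-DMb1 (11) alone exceeded 10 counts in any heart.

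Hearts of the same treatment differed widely in many of these genes. The biological coefficient of variation had a median of 22.4% over the 36 members and 11.7% over all genes tested. Macrophage, leukocyte and red cell markers were similar to the members, with medians of 20.5% over 12, 24.1% over 5 and 22.9% over 4 genes. The 2 tested B cell markers had a median of 25.9%, but the 2 tested dendritic cell markers had 14.35%. Of the members 14 of 36 were among the 5% of genes with the widest spread and 19 of 36 among the widest 10%. H2-T-ps stood at 51.1%, H2-Eb1 at 46.9% and H2-T22 at 41.2%, and Psmb10 at 10.01%. H2-D1, the most abundant heavy chain, had 23.3%. The chaperones Calr, Canx and Pdia3 had 8.92% to 9.42%. Among all 13092 genes caffeine replicate 1 held the highest value in 20.0% and the lowest in 20.3%. Among the members it held the highest in 61.1% and the lowest in 2.8%, while vehicle replicate 2 held the lowest in 38.9%.

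**Figure D5:**
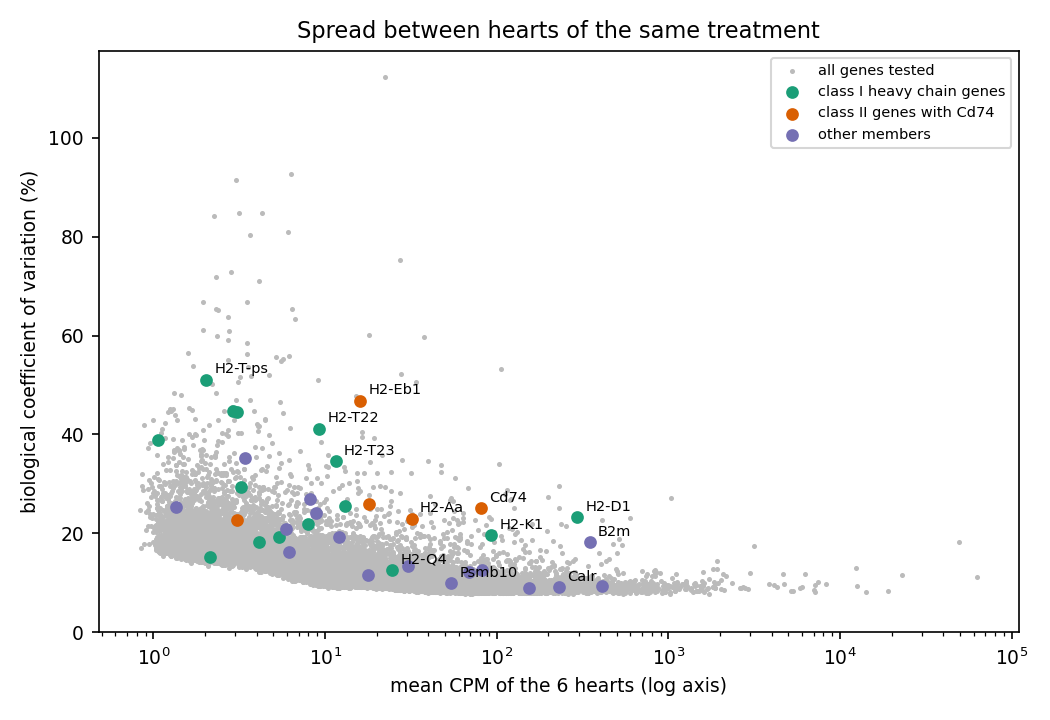
Biological coefficient of variation in percent (y axis) against mean CPM of the 6 hearts on a log axis (x axis), with all genes tested in grey and the members in colour by class. H2-Eb1, H2-T22 and H2-T-ps lie at 41.2% or above, 19 of the 36 members are among the 10% of genes with the widest spread, and Calr and Psmb10 lie near the lower edge.

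Markers of the cell types that could hold these transcripts were summed in each heart. The 12 macrophage markers (Csf1r, Adgre1, Cd68, C1qa and others) all had fold changes above 0, with a median of 0.46 on the log2 scale and none past the thresholds. They summed to 247 to 373 CPM in the vehicle hearts and 293 to 577 CPM in the caffeine hearts, with the highest sum again in caffeine replicate 1. The 5 pan-leukocyte markers summed to 26.04 to 41.0 CPM in vehicle and 28.6 to 43.5 CPM in caffeine hearts. Dendritic cell markers overlapped, at 20.4 to 24.6 and 19.1 to 23.8 CPM. Zbtb46 alone, at 14.45 to 21.2 CPM, made up most of that sum in every heart. Of the 7 dendritic cell markers 2 passed the filter, so the sum says little about the others. B cell markers were low, at 3.81 to 6.44 and 5.87 to 10.4 CPM, with Pax5 at 0 in every heart. T and NK cell markers were lower still, at 0.946 to 1.93 and 2.26 to 2.8 CPM over 8 genes, none of which passed the filter. Fibroblast markers summed to 760 to 916 CPM in vehicle and 999.8 to 1147 CPM in caffeine hearts, and endothelial markers overlapped at 653 to 693 and 644 to 693 CPM. The part of any of these in the class II values was not tested, and in bulk tissue more cells of a type and more RNA per cell cannot be told apart.

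The class II chains were also set against the macrophage markers of the same heart. The ratio of the class II sum to the macrophage sum was 0.142, 0.123 and 0.111 in the vehicle hearts and 0.239, 0.187 and 0.183 in the caffeine hearts. With H2-Aa and H2-Ab1 alone it was 0.11, 0.119 and 0.0912 in the vehicle hearts and 0.157, 0.143 and 0.141 in the caffeine hearts. In both forms every caffeine heart was above every vehicle heart, and caffeine replicate 1 was the highest. C1qa, C1qb, C1qc and Lyz2 made up most of the macrophage sum in every heart, so these ratios say little about the other markers. The log2 fold changes of single macrophage markers ran from 0.05 (Cd68) to 0.93 (Adgre1), the latter close to the 0.98 of H2-Aa. Ratios to single markers were not taken. Cd74 over the same markers was 0.222, 0.233 and 0.146 in the vehicle hearts and 0.214, 0.216 and 0.23 in the caffeine hearts, which overlapped.

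Among other genes of the pathway outside the set 0 of the 68 tested passed the thresholds in either direction in edgeR's quasi-likelihood test or in any other fit run. Among 20 tested genes of interferon signalling and of the class II enhanceosome (RFX and NF-Y subunits and interferon regulatory factors among them) the median log2 fold change was 0.09. Socs1, a feedback inhibitor of interferon signalling, had 0.60 (edgeR adjusted p = 0.655) and the interferon regulatory factor Irf9 had 0.51 (edgeR adjusted p = 0.536). In 12 genes of the endosomal route, cathepsins among them, the median was 0.02, with Ctsh at -0.29, Cd63 at 0.27 and Ctsl at 0.25. In 14 genes of the endoplasmic reticulum and cytosol that serve class I the median was 0.00, with Erp29 at 0.33, Hsp90aa1 at 0.29 and P4hb at 0.19. In 16 genes of the constitutive proteasome it was 0.07, with Psmb1 at 0.16, Psme4 at -0.16 and Psma4 at 0.14. In 6 MHC-like genes outside the H2 symbols it was 0.10, with Mill2 at 0.43, Mr1, which presents vitamin B metabolites, at 0.36, and the endothelial protein C receptor Procr at 0.16. At an unadjusted p below 0.05, 7 of the 68 were higher and 0 were lower, beside 4.42% and 4.4% of all genes.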

How the data were processed

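Left ventricular poly(A) RNA of 6 hearts (3 vehicle, 3 caffeine) was sequenced in a single run, with a library kit that does not mark strand. Per the labels and methods, the authors used FastQC for cleaning, Tophat2 for mapping to mm10 (GRCm38) and HTSeq for gene-level counting. The deposited values are raw counts for each of 43629 genes, neither normalized nor pooled. Depth was 7613011 to 10483101 counts per heart.

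The labels gave each heart its treatment and replicate number. Genes passing filterByExpr (minimum count 10, minimum total 15; 13092 genes) were TMM-normalized and fitted with edgeR 4.0.16 (R 4.3.3) (glmQLFit, glmQLFTest, a treatment term and no covariate), with Benjamini-Hochberg adjustment over all genes tested. The thresholds were an adjusted p below 0.05 and a fold change above 1.5. The SE was obtained as |log2 fold change| over the root of F. CPM used TMM library sizes, and RPKM also the joined length of all annotated exons of a gene. Names, positions and lengths came from GENCODE release M21 (GRCm38), where 1081 identifiers had no symbol, and promoters from RefSeq (GRCm38.p6). The fits were tested on simulated data.

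Other fits used the exact test, the likelihood ratio test and the robust option of edgeR, DESeq2 1.42.0, limma-voom (limma 3.58.1), other scalings and filters, the replicate number as a block and each heart left out. Sums of H2-Aa and H2-Ab1 alone and of H2-K1 alone were added after seeing the data. The members and lists were chosen with earlier results of these data known. Values were named by a rule: every class II chain, Cd74, H2-K1, H2-D1, H2-K2, B2m, Gm8810, the immunoproteasome, PA28, TAP, tapasin and transactivator genes, and any member past a threshold or with hearts that did not overlap. Other members are given by range, and each pathway list by the 3 genes with the largest absolute log2 fold change, of which 1 is not reported here. H2-Q2, H2-Q6, H2-M3, H2-T23, H2-T22 and H2-T24 were named after their values were seen.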

Additional observations from a re-analysis of the deposited data

How the results depend on the processing

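With the alternatives, 643 fold changes of tested members were recomputed in 18 fits. Of these, 599 kept their direction and their side of the thresholds, 26 changed sign without a call (in 10 members) and 18 passed the thresholds (in 10 members). Genes past the thresholds in the series numbered 11 higher and 3 lower, against 61 and 33 in edgeR's exact test, 63 and 38 in its likelihood ratio test, 39 and 28 in DESeq2, 145 and 95 with no filter, and 53 and 40 in the exact test with no filter. With library size only, 15 were lower. Members past the thresholds numbered 0 in each direction, against 2 higher in the exact test, 3 in the likelihood ratio test (H2-Eb1, Gm8810 and H2-Aa), 2 in the exact test with no filter (H2-Eb1 and H2-Aa), and 9 higher and 2 lower (H2-Ea-ps and H2-T22) with no filter. The cause was not tested. DESeq2, limma-voom, the robust fit, size factors, library size only, 10 counts in every heart and the fit without the 10 most abundant genes called 0 members. The adjusted p of H2-Eb1 ran from 4.76e-33 to 0.607 over the alternatives.

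Leaving out 1 heart gave 4 to 17 genes higher and 0 to 13 lower, with 0 members in each direction. Deviations from the group means correlated at 0.045, -0.03 and -0.038 between same-numbered hearts, and at -0.083 to 0.12 between differently numbered ones. With 3 hearts per treatment this cannot settle whether the numbers pair the hearts. With the number as a block in edgeR's quasi-likelihood test 29 genes were higher and 11 lower. In that fit 1 member was higher (H2-Eb1, log2 fold change 2.23, adjusted p = 0.00298). The difference of class II and class I ran from 0.43 without caffeine replicate 1 to 1.38 without caffeine replicate 2. It was 0.83 with H2-Aa and H2-Ab1 alone for class II and 0.95 with H2-K1 alone for class I, both chosen after seeing the data. With library size only the median of all genes was -0.08 and that of the members 0.40.

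With 3 hearts per treatment and 3 counts at 0.286 to 0.394 CPM, the depth limits what can be said of Gm8810, H2-T-ps, H2-K2 and Ciita and of every member that was not tested. Which dam bore each heart, and which MHC alleles each carried, is not given, and neither was tested.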
